A study of Mus musculus with 2 samples.

Results

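The genes of the nuclear packaging proteins of sperm were examined in chromatin of the mouse cells labelled GSC. The members were a fixed list of 5 genes, Prm1, Prm2, Prm3, Tnp1 and Tnp2, out of 21887 protein-coding genes of the GRCm38 RefSeq annotation. Accessible sites were taken from ATAC-seq, in which the Tn5 transposase cuts open chromatin and tags it with sequencing adapters. A site was counted for a gene when it lay in the gene body or within 50 kb of it and when peaks of both libraries overlapped there by at least 1 bp; such a pair of peaks is called a shared region. The series held 1 group of 2 libraries, replicate 1 and replicate 2. Both came from cells of the line Acrosin-EGFP; beta-Actin-EGFP (AAG) with the genotype Stag3 KO, sorted for viable AAG-positive cells. Stag3 encodes a cohesin subunit; cohesin is a ring-shaped complex that ties sister chromatids and extrudes chromatin loops. Wild-type cells were not analysed here, so no value below is an effect of the knockout. The labels do not say which part of Stag3 is lost, nor whether the libraries came from separate cultures or clones, and differences between them may be technical.

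In round spermatids, the haploid cells that follow meiosis, the genes for transition proteins and protamines are transcribed, and their messenger RNAs are stored before translation. Transition proteins (Tnp1 and Tnp2) then take the place of most histones, and the arginine-rich protamines (Prm1 and Prm2) in turn replace them and condense the sperm nucleus. Prm3 lies among the other genes of the cluster but encodes a small acidic protein that is not known to package DNA. GSCs in this field are cultured germline stem cells, which proliferate like spermatogonia and have not entered meiosis, so they precede the stage at which these genes are used.

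Prm1, Prm2, Prm3 and Tnp2 form a cluster of 8.89 kb on chromosome 16, all transcribed towards lower coordinates. From the low end it runs Tnp2 (10787935 to 10788655), Prm3 (10790508 to 10790914), Prm2 (10791377 to 10792105) and Prm1 (10796332 to 10796823). The spaces between neighbours measure 1852, 462 and 4226 bp. Tnp1 stands alone on chromosome 1 at 73015074 to 73015899, also on the minus strand. Gene models were 407 to 826 bp long, against a median of 17169 bp over all protein-coding genes.

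The sequence before the start sites is shown because its CpG content separates the members from their nearest accessible neighbour. Each line gives the 250 bases before the RefSeq start site (GRCm38.p6), 5′ to 3′ on the minus strand, with every CpG in capitals. Prm1 (chr16:10796824-10797073), Prm2 (chr16:10792106-10792355), Tnp2 (chr16:10788656-10788905) and Tnp1 (chr1:73015900-73016149) had no peak there in either library. Socs1 (chr16:10785537-10785786), which encodes a suppressor of cytokine signalling and is the next gene below Tnp2, had one in both.
Prm1: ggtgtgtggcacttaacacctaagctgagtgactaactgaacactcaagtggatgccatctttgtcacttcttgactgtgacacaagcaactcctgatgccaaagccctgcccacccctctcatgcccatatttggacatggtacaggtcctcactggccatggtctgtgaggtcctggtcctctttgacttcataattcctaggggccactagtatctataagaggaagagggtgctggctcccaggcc
Prm2: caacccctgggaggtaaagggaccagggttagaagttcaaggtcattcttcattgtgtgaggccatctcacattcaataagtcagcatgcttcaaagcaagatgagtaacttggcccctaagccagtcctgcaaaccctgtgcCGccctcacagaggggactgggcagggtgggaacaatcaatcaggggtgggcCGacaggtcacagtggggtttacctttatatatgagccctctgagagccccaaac
Tnp2: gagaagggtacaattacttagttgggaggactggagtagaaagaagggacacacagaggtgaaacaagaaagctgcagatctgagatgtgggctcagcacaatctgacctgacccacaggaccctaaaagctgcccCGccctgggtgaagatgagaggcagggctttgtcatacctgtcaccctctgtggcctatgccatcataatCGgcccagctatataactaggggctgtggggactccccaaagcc
Tnp1: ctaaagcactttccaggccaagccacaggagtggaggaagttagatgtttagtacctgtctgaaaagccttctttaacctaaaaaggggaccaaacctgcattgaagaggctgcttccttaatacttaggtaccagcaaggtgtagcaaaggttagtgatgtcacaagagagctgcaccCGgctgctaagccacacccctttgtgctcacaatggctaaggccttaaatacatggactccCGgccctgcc
Socs1: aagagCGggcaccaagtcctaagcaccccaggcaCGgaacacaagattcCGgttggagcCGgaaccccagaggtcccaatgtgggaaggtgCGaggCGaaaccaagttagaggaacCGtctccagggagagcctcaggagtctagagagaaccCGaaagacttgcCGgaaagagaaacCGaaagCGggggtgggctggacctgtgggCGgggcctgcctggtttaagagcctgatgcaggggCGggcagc

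Prm1 held 0 CpG in this stretch, and Prm2, Prm3, Tnp1 and Tnp2 held 2 each. Socs1 held 13. The median over 21263 start sites of protein-coding genes was 10, and the members stood at percentile 3.31 (Prm1) and 18.8 (the other 4 genes). The share of G and C was nearer to the middle of all start sites, with 51.6% at Prm1, 52.8% at Prm2, 56.4% at Prm3, 49.2% at Tnp1 and 53.2% at Tnp2, against a median of 55.6%.

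None of the 5 genes had an accessible site at either end. Replicate 1 had 0 peaks and replicate 2 had 0 peaks in each of the 5 gene bodies, and 0 of 5 genes had a peak of either library within 1000 bp of a gene end, against 67.6% of all protein-coding genes in replicate 1, 67.3% in replicate 2 and 65.8% with a shared region. A shared region in the gene body was found at 74.2% of all protein-coding genes. Small genes are a nearer reference for the members. Of the 1577 genes of at most 1000 bp, 8.50% had a shared region at a gene end, and of the 605 among them that are not olfactory or vomeronasal receptor genes, 20.2% had one. No test was made, since the members were a chosen list and the series holds 1 group. Peak lists give only what passed the peak caller. The weakest peak of each library rested on 9 tags, which are the reads stacked at its summit, and the number a peak needs rises with the local background. Signal below that threshold at these genes is not covered. In bulk chromatin, access in a few cells and weak access in all cells cannot be told apart.

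The absence of a site at the start was shared with most start sites of similar CpG content. A shared region covered part of the 250 bases at 57.8% of all 21263 start sites and at 0 of the 5 members. With 0 CpG, the class of Prm1, the share was 2.13% (30 of 1406, 95% Wilson interval 1.50 to 3.03). With 1 to 2 CpG, the class of Prm2, Prm3, Tnp1 and Tnp2, it was 6.16% (209 of 3395, interval 5.40 to 7.02). The share climbed through 23.4% at 3 to 5 CpG and 66.3% at 6 to 10 CpG to 90.6% at 11 to 20 CpG, the class of Socs1. Without olfactory and vomeronasal receptor genes, which make up part of the CpG-poor classes, the shares were 3.27% at 0 CpG and 7.53% at 1 to 2 CpG.

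**Figure D1:**
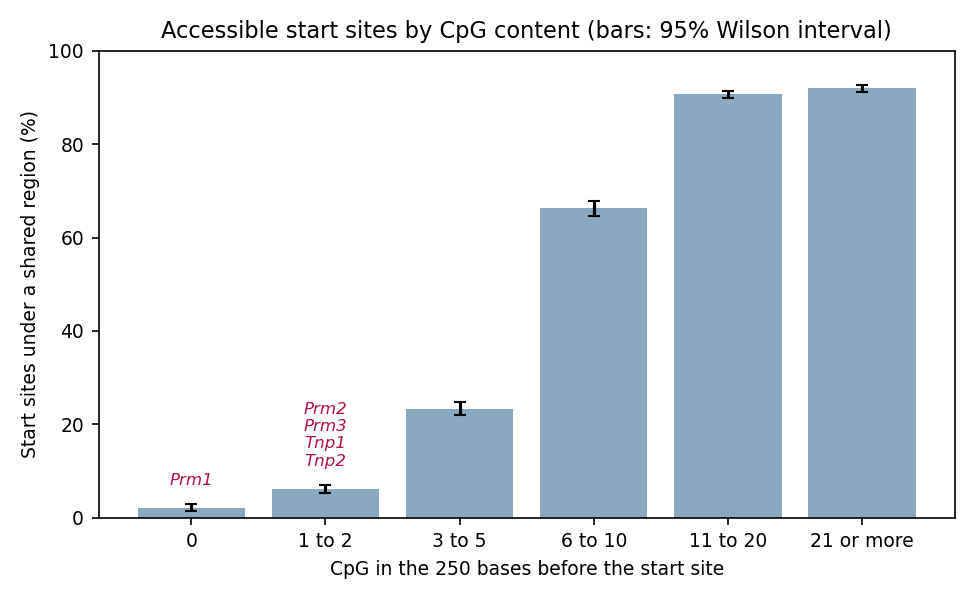
Share of protein-coding start sites with a shared region over the 250 bases before them (y axis, percent) by the number of CpG in those bases (x axis); error bars are 95% Wilson intervals, which cover counting error only. The members, named in red, fall in the classes with 0 and 1 to 2 CpG, where the shares are 2.13% and 6.16%.

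Short motifs linked to spermatid promoters were searched on both strands of the same 250 bases. The palindromic cyclic AMP response element TGACGTCA, the site bound by the spermatid activator CREM, was found at 0 of 5 members and at 1.92% of all start sites, and its core TGACG at 0 of 5 members and 20.2%. The form TGANGTCA, in which the fourth base is free, which includes the palindrome and was added after the sequences were seen, matched 3 of 5 members and 7.25% of all start sites. It lay 64 to 57 bases before the start of Prm1, 60 to 53 before that of Prm3 and 94 to 87 before that of Tnp1. At Prm1 the match was on the strand opposite to transcription, and it reads TGACTTCA in the direction of transcription. TATAAA was found at Prm2 alone (11.6% of all start sites), on the strand opposite to transcription. In the direction of transcription it reads TTTATA, 31 to 26 bases before the start. TATATA, also added later and partly overlapping it at Prm2, was found at Prm2 and Tnp2 (5.22% of all start sites), where it lay 29 to 24 and 35 to 30 bases before the start. A CCAAT box, searched as ATTGG on both strands, was found at Prm3, where it reads CCAAT in the direction of transcription (35.4% of all start sites), and a CTCF core motif, the site at which cohesin loops are stopped, at 0 of 5 members (1.98%). These are matches of letters and show no binding.

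The 4 clustered genes lay together in a stretch of 48.1 kb without a peak of either library. It ran on chromosome 16 from 10786711, just above Socs1, to 10834852, at the lower edge of the peak of Rmi2, which encodes a subunit of the BLM helicase complex that limits crossover formation. It held no other protein-coding gene. Its length stood at percentile 89.7 of the 119998 stretches between neighbouring peaks, whose median was 8746 bp. Of all protein-coding genes, 15.6% lay wholly inside a stretch at least as long, and 10.9% when olfactory and vomeronasal receptor genes were left out. Of 2469 stretches that held a protein-coding gene, 249 held 4 or more. Of these 249, 138 held no receptor gene of these families, and 62 also held no predicted or clone-named gene.

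**Figure D2:**
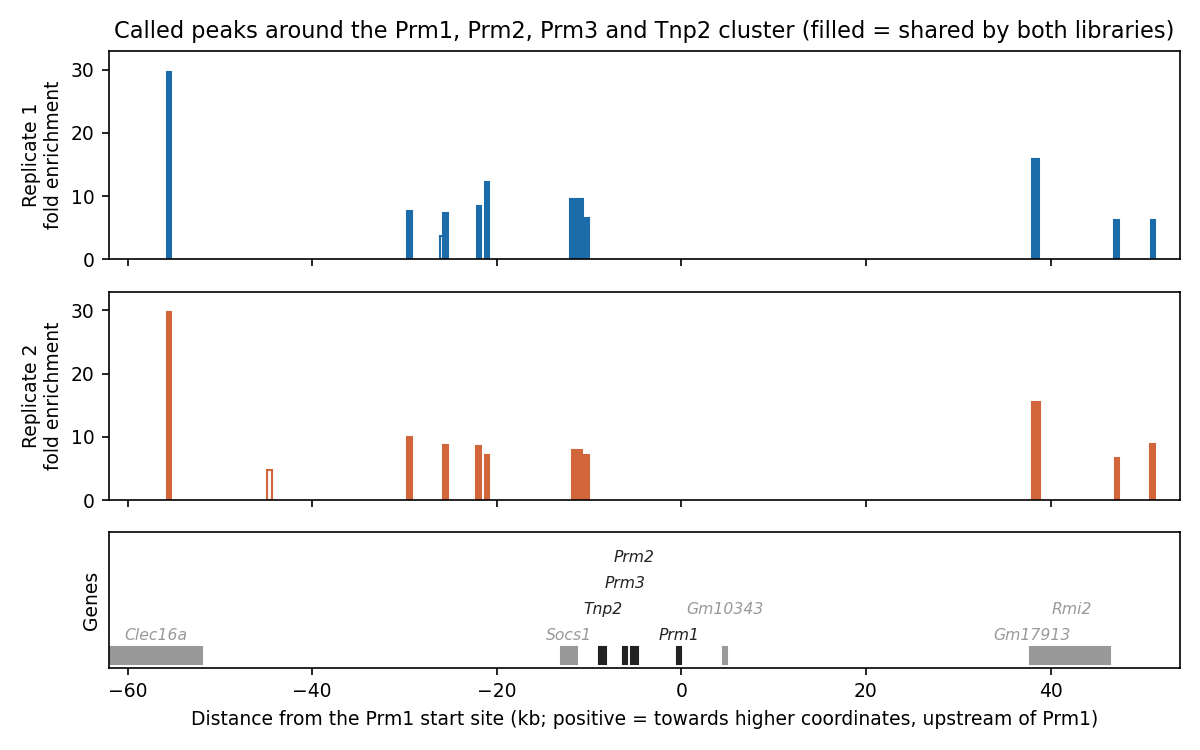
Called peaks around the Prm1, Prm2, Prm3 and Tnp2 cluster, with fold enrichment (y axis, linear) against distance from the Prm1 start site in kb (x axis), replicate 1 above and replicate 2 below; filled bars are peaks shared by both libraries and open bars are peaks of 1 library. Bars narrower than 0.5 kb are drawn at 0.5 kb. The members (black boxes) sit in a stretch of 48.1 kb without a peak, between the Socs1 and Rmi2 peaks.

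Distance to the nearest accessible site differed within the cluster, because the genes lie in a row beside the Socs1 sites. From the start of Tnp2 the nearest peak edge was 1.98 kb away in replicate 1 and 1.95 kb in replicate 2. From Prm3 it was 4.24 and 4.20 kb, and from Prm2 it was 5.43 and 5.40 kb. Prm1, at the far end of the row, was 10.2 and 10.1 kb away. Both libraries thus gave nearly the same distances, and for each of these genes the nearest site was the same region above Socs1. For Tnp1 they differed, with 11.9 kb in replicate 1 and 20.6 kb in replicate 2, since the nearer peak was called in replicate 1 only. Against all protein-coding start sites, of which the median lay inside a shared region (0 kb) and the upper quartile at 6.03 kb, the distances to a shared region stood at percentile 67.4 for Tnp2, 72.3 for Prm3, 74.2 for Prm2, 79.1 for Prm1 and 84.5 for Tnp1.

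**Figure D3:**
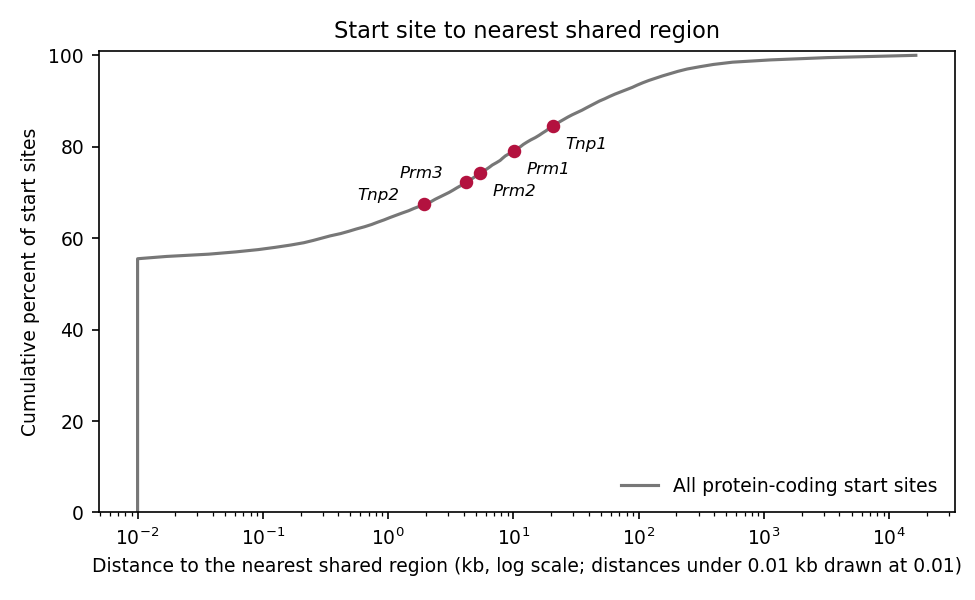
Cumulative percent of protein-coding start sites (y axis) by distance to the nearest shared region in kb (x axis, log scale, distances under 0.01 kb drawn at 0.01). The grey line is all start sites and the red points are the members, from Tnp2 at 1.95 kb (percentile 67.4) to Tnp1 at 20.6 kb (percentile 84.5).

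Around the members, 10 shared regions lay within 50 kb, 9 of them at the cluster and 1 at Tnp1. At least 1 such region was found at 89.6% of all protein-coding genes. Prm1, Prm2, Prm3 and Tnp2 each counted 8, mostly the same regions, which put each of them at percentile 53.7, and the median gene counted 7. Tnp1 counted 1 and stood at percentile 12.6. With the count restricted to peaks whose fold exceeded the library median, Prm1 kept a count of 1 and Prm2, Prm3 and Tnp2 a count of 2 each (percentiles 18.0 and 27.2), against a median of 4. By these counts the clustered genes stood near the median gene for all sites and below it for sites of higher fold. The window includes the gene body, so it is wider for longer genes, and the members are short. The counts and percentiles were not adjusted for this and do not compare densities of sites. At the cluster the sites stood on both flanks of the member genes and not at them. At Tnp1 the only shared region in the window stood on the upstream side. Fold enrichment is the peak caller's ratio of tags at the summit to local background, as the authors deposited it. Over the 10 regions its median was 8.96 in replicate 1 and 8.68 in replicate 2. Over all 83732 shared regions it was 10.9 and 10.6. Tags at the summit differed in the other direction, with medians of 100 and 74.5 over the 10 regions, against 52 and 51 over all shared regions.

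The sites nearest to the 4 clustered genes lay at and beside Socs1. A wide region at chr16:10784766-10786115 covered the Socs1 start site, 1.82 kb below the Tnp2 model. Its fold was 9.57 in replicate 1 and 8.00 in replicate 2, near the middle of each library (percentiles 54.3 and 44.9), but it rested on 189 and 137 tags, at percentiles 92.0 and 84.6. The local background there was 18.9 and 16.3 tags, the highest in each library among the 10 regions around the members. The lowest value over all peaks was 2.19 and 2.13 in the 2 libraries. At 1350 and 1173 bp the peak was among the widest of each library (percentiles 99.8 and 99.5). A second region, at chr16:10786351-10786710, overlapped no annotated gene, lay 1.23 kb from Tnp2 and had folds of 6.61 and 7.05 with 129 and 120 tags. It is the last site before the stretch without peaks and the closest to any member.

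Further below Socs1, 4 narrow regions lay in the space without annotated genes between Clec16a and Socs1. The region at chr16:10775563-10775946, 12 kb from Tnp2, had folds of 12.2 and 7.12 with 106 and 48 tags. Replicate 1 thus gave 68.8% of its tags (95% Wilson interval 61.1 to 75.6, counting error only), against 48.8% of the tags of all shared regions. The difference between libraries, 1.14 on the log2 scale, was larger than the standard deviation of 0.59 over all shared regions and stood at percentile 94.1 of their sizes. The adjoining region at chr16:10774727-10775041 had 8.35 and 8.58 with 72 and 57 tags. The other 2, at chr16:10771070-10771395 and chr16:10767202-10767489, had 7.39 and 8.77, and 7.71 and 9.93. All 4 stood within percentiles 39.6 to 65.0 of their libraries. Replicate 1 also had a peak of 3.67-fold beside the region at chr16:10771070-10771395, and replicate 2 had a peak of 4.80-fold nearer to Clec16a, and neither was found in the other library.

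The strongest site within 50 kb of a member lay inside Clec16a, which encodes a regulator of endosomes and mitophagy. At chr16:10741095-10741522 it had folds of 29.7 and 29.8, percentiles 97.6 and 97.3, with 195 and 215 tags. It lay 46.4 kb from Tnp2 and fell outside the window of Prm1. On the other flank the region at chr16:10834853-10835641 covered the lower-coordinate end of Rmi2 and the pseudogene Gm17913, 38.0 kb from Prm1, with 15.9-fold and 15.5-fold and 94 and 103 tags. A weak region at chr16:10843818-10844248, beyond the other end of Rmi2 and 47.0 kb from Prm1, had 6.27 and 6.69 with 19 and 22 tags. The window of Prm1 alone reached it.

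**Figure D4:**
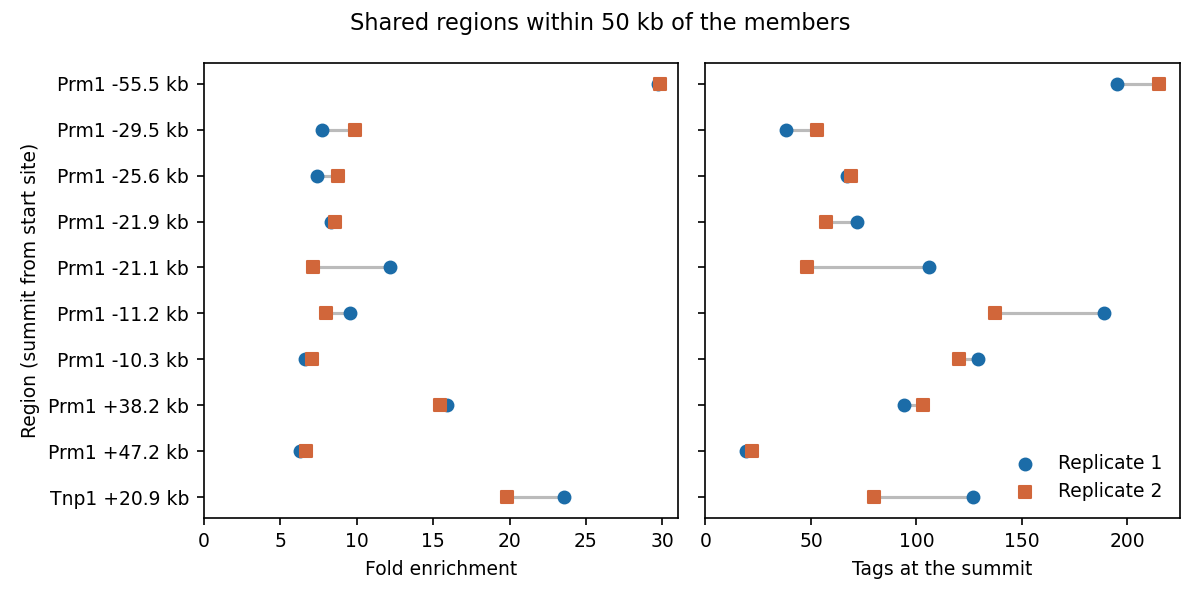
Fold enrichment (left, x axis) and tags at the summit (right, x axis) of the 10 shared regions within 50 kb of the members, 1 row per region named by the distance of its summit from the Prm1 or Tnp1 start site in kb; circles are replicate 1 and squares are replicate 2. The largest gap between libraries in tags relative to their size is at the region 21.1 kb below the Prm1 start, with 106 and 48 tags.

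Tnp1 lay in a longer empty stretch. Without peaks of either library it measured 74.1 kb, from 72953738 to 73027819 of chromosome 1, and 13.3% of protein-coding genes lay in a stretch at least as long (9.19% without olfactory and vomeronasal receptor genes). Counting only shared regions it measured 82.7 kb and ended at 73036475. The stretch also held the pseudogene Gm17846 and Gm31137, a long noncoding RNA gene. The long noncoding RNA gene 1700027A15Rik, whose model begins 137 bp above the Tnp1 start on the opposite strand, had no shared region at its ends either.

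A single shared region lay within 50 kb of Tnp1. At chr1:73036476-73037053, 20.6 kb upstream of the Tnp1 start and outside every annotated gene, it had folds of 23.5 in replicate 1 and 19.9 in replicate 2, percentiles 90.9 and 83.8, with 127 and 80 tags. Among the 10 regions around the members only the Clec16a site had a higher fold in both libraries. Replicate 1 gave 61.4% of its tags (95% Wilson interval 54.6 to 67.7), and the difference of 0.67 on the log2 scale stood at percentile 79.7 of all shared regions. Replicate 1 also had a peak at chr1:73027820-73028109, 11.9 kb upstream, of 8.15-fold with 25 tags, which replicate 2 lacked.

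**Figure D5:**
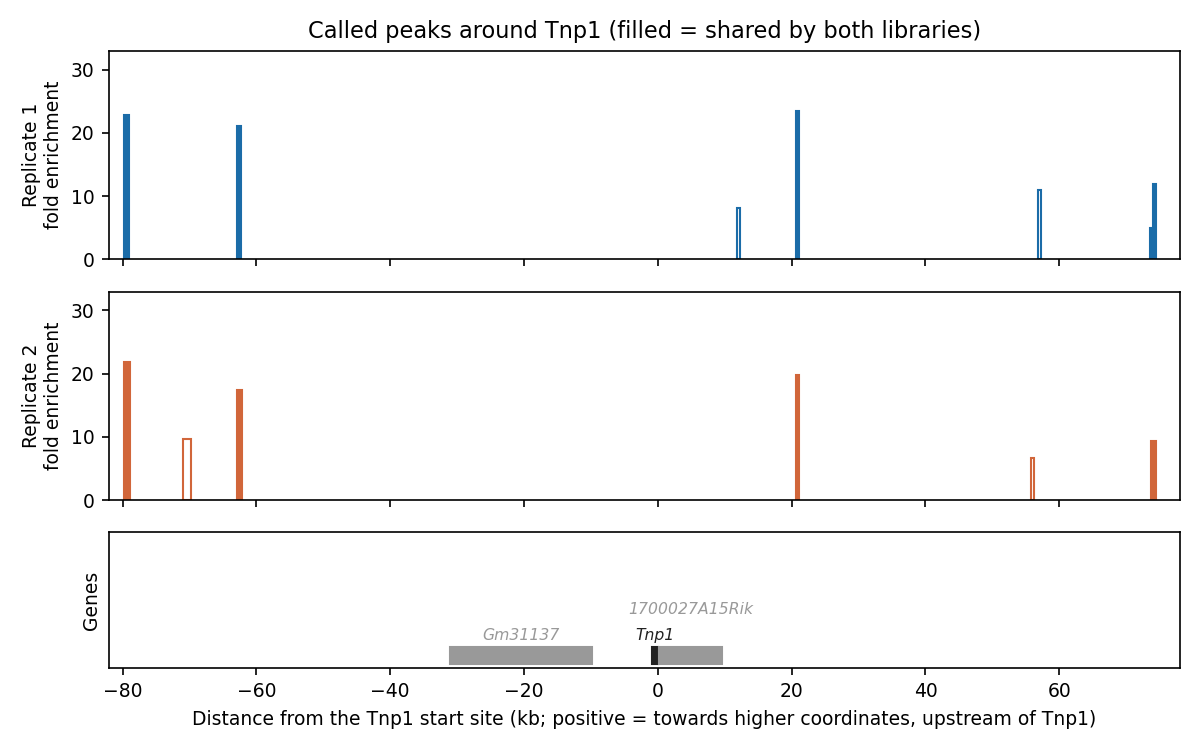
Called peaks around Tnp1, drawn as for the cluster, with fold enrichment (y axis, linear) against distance from the Tnp1 start site in kb (x axis). The region 20.9 kb upstream (summit) is the only filled bar within 50 kb, and the open bar nearer to Tnp1 is the 8.15-fold peak of replicate 1.

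Genes that act on the histone-to-protamine exchange, or on the expression of the members, mostly had a site at a gene end, as did most protein-coding genes. The list held 31 names, of which H1f9 found no match, and 25 of the 30 matched genes had a shared region within 1000 bp of a gene end (all protein-coding genes, 65.8%). Gene length was not matched in this comparison, and no test was made. Of the 16 genes of chromatin and histone exchange, 12 had one (75%, 95% Wilson interval 50.5 to 89.8, counting error only). The list was chosen with earlier results of these data known, so this interval is not a test against the 65.8%. Kat5, the catalytic subunit of a histone acetyltransferase complex, had 31.4-fold in replicate 1 and 31.7-fold in replicate 2. That region, chr19:5601654-5602117, lay outside the Kat5 model, which begins at 5603014, so it may belong to another gene. A start site listed for Kat5 itself lay inside a shared region. Epc1, a partner of Kat5, had 22.0 and 21.9. Brdt, the testis bromodomain protein that binds acetylated histones, had 20.6 and 20.8, and Rnf8, a histone ubiquitin ligase, had 15.9 and 20.4. The 4 genes without such a region were Camk4, a kinase that phosphorylates Prm2, Chd5, a chromatin remodeller, H1f7, a spermatid linker histone, and H2al2a, a histone variant of late spermatids. Of the other testis histone genes on the list, chosen for naming after their values were seen, H2bc1 and its neighbour H2ac1 shared a region of 13.7 and 17.8, and H1f6 had 10.1 and 12.5.

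Of the 14 genes of transcription and translation control, 13 had a shared region at a gene end (92.9%, 95% Wilson interval 68.5 to 98.7, counting error only). For the same reason, this interval is not a test against the share of all protein-coding genes. Sox30, a transcription factor of spermatids, had 28.0-fold and 27.8-fold, and Rfx2, a regulator of cilium and spermatid genes, had 24.6 and 25.6. Tbpl1, a relative of the TATA-binding protein, had 21.7 and 21.4. Ddx25, an RNA helicase of germ cells, had 19.9 and 21.4 in a region outside its model (chr9:35559223-35559657, where the model ends at 35558470). The start site listed for Ddx25 lay inside a shared region. The gene without a region was Fhl5, which encodes ACT, the coactivator of CREM in spermatids. Its start site lay 38.4 kb from the nearest shared region. Crem and Ybx2, the latter a storage protein of protamine messenger RNA, were chosen for naming after their values were seen and had 13.5 and 16, and 12.6 and 16.4. The sites of Crem, a long gene with several starts, lay at a gene end, and which of its start sites they serve was not tested.

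The cell type was checked on marker genes in the same way, with the 65.8% of all protein-coding genes as the background of each count. That share was not matched for gene length, and it was lower among short genes. Several spermatid markers are short, so their count is not a measure of stage alone. Shared regions stood at a gene end of 10 of 10 markers of undifferentiated spermatogonia and 3 of 3 general germ cell genes, and at 3 of 8 spermatid markers. Of those 8, Spaca1, Tssk6 and Spata3 had one, Acrv1, Tssk2 and Pgk2 had a peak in replicate 1 only, and Tssk1 and Odf1 had none. Over the 250 bases before a start site, 1 of the 7 spermatid markers with a listed start site had a shared region (Spaca1). The same held for 6 of 6 markers of undifferentiated spermatogonia and 3 of 3 germ cell genes, against 57.8% of all start sites. That share rises with CpG content, for which the markers were not matched, so these counts are not a measure of stage alone either. Among genes listed as markers of other cells that a sort could carry over, 5 of 6 Sertoli, 1 of 5 Leydig, 2 of 5 fibroblast and 0 of 4 endothelial and blood genes had one at a gene end. The Sertoli count includes Dmrt1 and the fibroblast count includes Thy1. Both are also used in spermatogonia, so their sites cannot tell other cells from the sorted ones. The part of other cells in the sites near the members was not tested.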

How the data were processed

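ATAC-seq was run on 2 libraries of Stag3 KO GSCs. Peaks came from MACS2 2.1.1 on mm10 (also given as GRCm38.p3), per the submitters' processing notes. These also list deepTools 3.5.0, bedtools 2.29.2, Picard 2.18.23, the aligner Bowtie2 2.3.4.1 and the trimmer Trim Galore; settings, such as a shift for Tn5 or removal of duplicates, are not given in the sources used here. The authors deposited 1 peak list per library (107331 and 98986 peaks), not pooled, with a fold enrichment ratio, −log10 p and −log10 q, and a deposited score that was not used. Read depth was unknown. Tags at each summit were recovered as the whole number that solves fold and p together (100% of peaks, relative tolerance 1e-05 plus 0.0001; checked on simulated data).

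Each replicate 1 peak was joined with its most overlapping replicate 2 peak to form a shared region. Genes, start sites and promoter sequences came from RefSeq tables on GRCm38.p6, with start sites for 17492 of 21887 protein-coding genes. Named genes were the members, protein-coding genes in their windows and, per pathway list, the 4 with the highest percentile, 4 without a peak and any with a peak in 1 library; genes named outside this rule are marked as such in the text or are markers. Members and lists were chosen with earlier results of these data known. Python 3.11.15, pandas 2.3.3 and scipy 1.17.1 were used. Intervals cover counting error only.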

Additional observations from a re-analysis of the deposited data

How the results depend on the processing

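No paired analysis was possible because the series holds 1 group. The count of members with a gene-end peak in both libraries was 0 in the main setting and in every alternative tried except a gene-end window of 2500 bp, where it was 1 (Tnp2, through the sites beside Socs1). The 10 shared regions within 50 kb became 3 when each library was limited to its 50000 peaks of highest fold and 3 among peaks above the median fold, and 19 with a window of 100 kb. With either limit on fold the count was 1 at Prm1 and 2 at Prm2, Prm3 and Tnp2, against a median of 4 over all protein-coding genes. Peaks of a single library gave 11 to 12 regions. Leaving out replicate 2 raised the count at Tnp1 from 1 to 2. The 25 pathway genes with a gene-end peak ranged from 21 to 26 over the 10 alternatives tried. The median fold of the regions was 8.68 to 8.96 with either library alone. A region over the 250 bases before a start site, an alternative chosen after seeing the data, was found at 0 members and 21 pathway genes. Read depth was unknown. The weakest peaks held 9 tags, and more were needed where the local background was high, so access below the caller's threshold at the members is not covered.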
